A study of Homo sapiens with 6 samples.

Results

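The data described here were the transcript levels of H69AR cells that had received a control siRNA, taken alone. H69AR is a drug-resistant line that was derived from the small-cell lung cancer (SCLC) line H69 by selection with the anthracycline doxorubicin (adriamycin), and it is labelled as SCLC. The 3 libraries titled siCtrl were chosen out of 6 in the series, with all 27852 genes that carry a symbol among 27853 lines of the table. The series was made to study the exonuclease TREX1 by knockdown in this line, and the knockdown libraries were not used.

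The cells of all 3 libraries were transfected with a nonspecific siRNA, siCtrl, and harvested on day 3. Total RNA was purified, and directional paired-end libraries were sequenced. No source used here says that the 3 libraries came from separate cultures, so the spread between them may be technical. The cells had been through transfection and were not untreated cells, and they are 1 cell line, so their levels stand for this culture and not for SCLC in general.

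SCLC is a neuroendocrine cancer of the lung. Its tumours are commonly sorted by the transcription factor that dominates them, among them NEUROD1 for neuroendocrine tumours, POU2F3 for tuft cell-like tumours and YAP1 for tumours that lack neuroendocrine genes. Genes of the MYC family are often amplified, and RB1 is usually inactivated. H69AR is known as the line from which the efflux pump ABCC1, also named MRP1, was first cloned, and MYCN amplification has been described in the parent line H69. DNA copy number was not measured in these libraries.

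Levels are given as CPM, the estimated count of a gene per 1000000 estimated counts of its library, as mean ± SD of the 3 libraries. The estimated counts were scaled from transcript abundances in a way that removes transcript length, so levels of different genes can be set side by side per length. The library totals were 22482687, 16417292 and 20651779, so that 3 counts corresponded to 0.133 to 0.183 CPM. An estimate of 0 allows that level in a library if the estimates are treated as read counts with counting error alone. Scaled estimates are not read counts, so this level is approximate. The libraries were not copies of each other. Over 13295 genes with a mean of at least 10 counts, the chi-square per degree of freedom was 7.99. This is a ratio of variances, in which the scaled estimates are treated as read counts, so it is given as a description. The Pearson correlation of log2 levels across genes was 0.989 to 0.990 between libraries.

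Each symbol stands in the table with the level of 1 transcript, and this limits what a low value can say. Of 18816 protein-coding genes, 2657 were represented by a transcript that is not annotated as coding in GENCODE 29, and 46.3% of these were detected against 65.3% of the 16159 genes with a coding transcript. ACTB, which encodes beta-actin and was looked up after the values had been seen, was listed at 33.0 ± 2.21 CPM (n = 3) through a non-coding transcript. A gene is therefore described below as listed at 0, never as absent, and the kind of transcript is named where it was not a coding one.

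Genes were sorted by level into classes. A gene was listed at 0 when its estimate was 0 in every library, at trace level below a mean of 0.5 CPM, low from 0.5 to under 10, middle from 10 to under 100, high from 100 to under 1000 and very high from 1000 CPM, and it was called detected when all 3 libraries reached 0.5 CPM. Detected genes numbered 12379, or 44.4% of all genes and 62.6% of protein-coding genes, and the latter share is the background for every count of list members given as detected. A further 10241 genes (36.8%) were listed at 0, and 18.3% of protein-coding genes were among them. The 144 very high genes took 40.6% of all counts, and the 1406 high genes took another 34.3%. The median CV between libraries was 1.85% for very high genes, 2.79% for high genes, 5.53% for middle genes, 20.4% for low genes and 106% for genes at trace level, so differences among trace genes were not read. Processed pseudogenes made up 5622 lines, of which 78.7% were listed at 0.

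**Figure D1:**
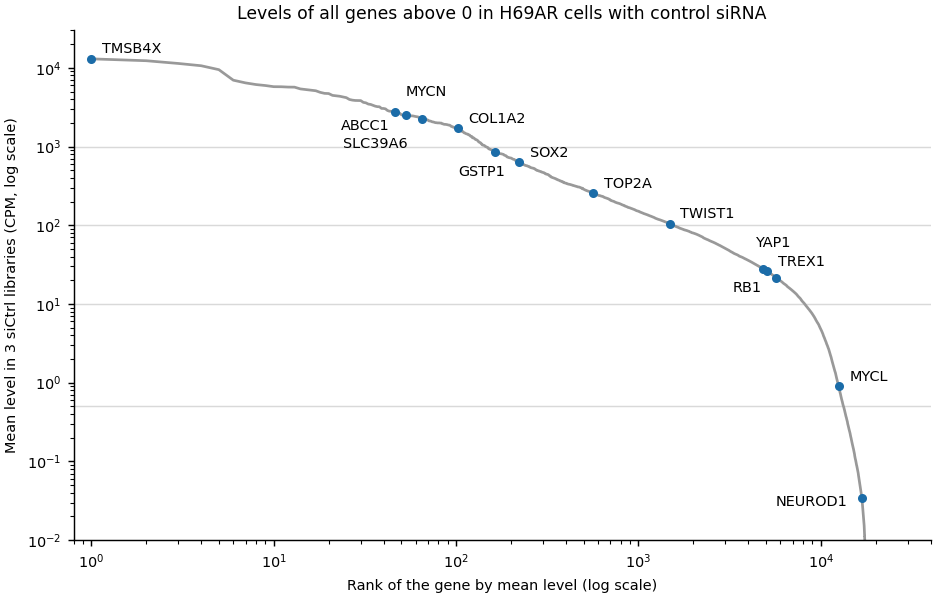
Mean level of each gene above 0 in the 3 siCtrl libraries (CPM, log scale) against its rank (log scale); grey lines mark the class limits at 0.5, 10, 100 and 1000 CPM, and values under 0.01 CPM are not drawn. MYCN, ABCC1 and SLC39A6 lie among the very high genes, while NEUROD1 lies at trace level.

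Promoter sequence was compared between classes of level, since promoters rich in CpG dinucleotides are common among widely used genes and CpG-poor promoters among tissue-restricted ones. RefSeq promoter windows of 300 bases (250 before to 50 after the start, GRCh38.p14) were available for 14740 of the 18816 protein-coding genes. The median ratio of observed to expected CpG was 0.295 for genes listed at 0, 0.466 at trace level, 0.776 for low, 0.864 for middle, 0.884 for high and 0.889 for very high genes. CpG-rich windows, defined by a ratio of at least 0.6 and a GC share of at least 50%, made up 27.8% of the class listed at 0 and 88.4% of the high class, against 65.1% of all windows. The letters TATAAA, searched on both strands, were found in 9.29% of all windows, from 20.5% of genes listed at 0 to 4.32% of middle genes and 11.5% of very high genes. These are descriptions of sequence over genes, which are not independent replicates.

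The windows of 6 genes are shown because the results turn on them: MYCN, and CEP20 in place of its neighbour ABCC1; SLC39A6 and ELP2 as the divergent pair; CHGA as a CpG-rich neuroendocrine gene listed at 0; and ALB, the hepatocyte albumin gene, as a CpG-poor one listed at 0. Capitals mark CG dinucleotides, and each sequence reads 5′ to 3′ on the strand of its gene. The windows are chr2:15940300-15940599 (plus strand) for MYCN, chr16:15888554-15888853 (minus) for CEP20, chr18:36129291-36129590 (minus) for SLC39A6, chr18:36129649-36129948 (plus) for ELP2, chr14:92922900-92923199 (plus) for CHGA and chr4:73404037-73404336 (plus) for ALB.
MYCN: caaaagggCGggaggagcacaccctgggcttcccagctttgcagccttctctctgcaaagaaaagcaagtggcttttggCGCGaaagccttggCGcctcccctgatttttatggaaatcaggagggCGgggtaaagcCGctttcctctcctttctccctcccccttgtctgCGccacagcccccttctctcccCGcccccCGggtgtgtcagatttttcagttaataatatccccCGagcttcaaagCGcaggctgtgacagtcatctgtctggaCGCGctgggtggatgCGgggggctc
CEP20: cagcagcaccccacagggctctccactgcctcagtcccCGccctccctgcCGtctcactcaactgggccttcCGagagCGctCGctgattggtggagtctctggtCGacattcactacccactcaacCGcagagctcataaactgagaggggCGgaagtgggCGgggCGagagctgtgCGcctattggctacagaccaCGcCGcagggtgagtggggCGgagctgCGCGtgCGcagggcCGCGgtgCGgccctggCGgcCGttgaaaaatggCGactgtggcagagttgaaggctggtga
SLC39A6: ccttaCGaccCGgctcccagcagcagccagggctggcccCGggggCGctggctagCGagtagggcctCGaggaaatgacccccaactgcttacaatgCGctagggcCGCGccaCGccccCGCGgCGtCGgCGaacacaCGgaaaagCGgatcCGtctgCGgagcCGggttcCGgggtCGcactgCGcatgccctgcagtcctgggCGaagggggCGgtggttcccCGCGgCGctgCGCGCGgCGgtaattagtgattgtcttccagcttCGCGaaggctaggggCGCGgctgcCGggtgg
ELP2: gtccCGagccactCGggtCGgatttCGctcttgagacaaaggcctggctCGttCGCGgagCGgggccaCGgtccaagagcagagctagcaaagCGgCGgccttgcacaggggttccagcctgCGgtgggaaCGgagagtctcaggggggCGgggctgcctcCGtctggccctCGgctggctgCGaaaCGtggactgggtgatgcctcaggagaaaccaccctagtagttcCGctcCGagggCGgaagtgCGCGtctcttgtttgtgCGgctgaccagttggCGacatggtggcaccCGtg
CHGA: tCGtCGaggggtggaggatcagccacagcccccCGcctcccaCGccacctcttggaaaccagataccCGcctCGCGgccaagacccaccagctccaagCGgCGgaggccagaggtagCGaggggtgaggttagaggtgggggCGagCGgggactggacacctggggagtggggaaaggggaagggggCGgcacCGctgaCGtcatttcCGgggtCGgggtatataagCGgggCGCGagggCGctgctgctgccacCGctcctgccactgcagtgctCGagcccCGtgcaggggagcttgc
ALB: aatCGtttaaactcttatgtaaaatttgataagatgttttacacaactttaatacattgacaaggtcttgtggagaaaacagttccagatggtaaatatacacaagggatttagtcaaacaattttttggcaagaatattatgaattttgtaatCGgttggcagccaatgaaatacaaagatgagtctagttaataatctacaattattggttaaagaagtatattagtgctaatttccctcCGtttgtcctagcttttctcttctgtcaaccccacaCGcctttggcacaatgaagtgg

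The SLC39A6 window held 37 CG dinucleotides and that of ELP2 26, with 58 bases between the windows, and CEP20 held 23 and MYCN 14. CHGA held 24 CG dinucleotides at a GC share of 69.3%, more than MYCN, although CHGA was listed at 0 and MYCN at 2762 CPM. ALB held 4 at a GC share of 33.3%. None of the 6 windows held TATAAA. CpG content therefore followed the classes of level over many genes, but did not order these 6 genes by level.

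**Figure D2:**
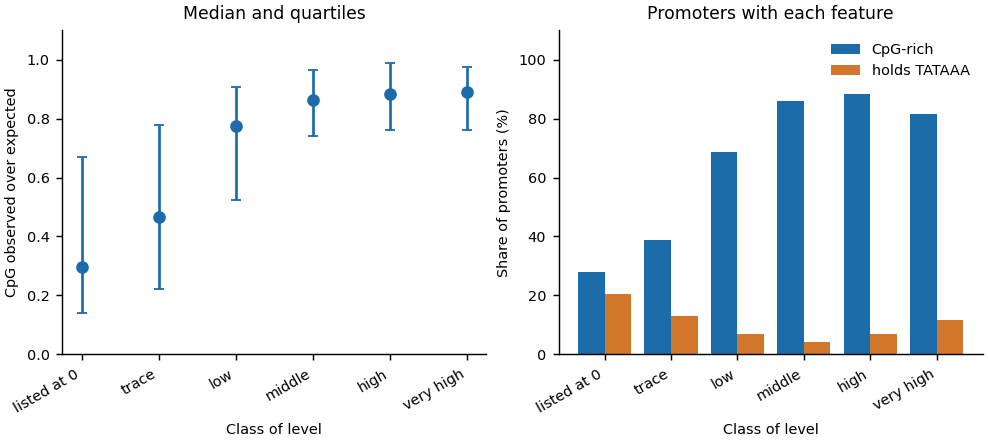
CpG observed over expected (points are medians, bars run from the lower to the upper quartile) and share of 300-base promoter windows that were CpG-rich or held TATAAA (%), for 14740 protein-coding genes by class of level. The median ratio goes from 0.295 for genes listed at 0 to 0.889 for very high genes, and the TATAAA share is lowest in the middle class at 4.32%.

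Among the 30 highest genes, 16 encoded cytosolic ribosomal proteins and 5 were mRNAs of the mitochondrial genome. The highest of all was TMSB4X, an actin-sequestering thymosin, with 13182, 12461 and 13337 CPM in the 3 libraries. The other 8 were the peptidyl-prolyl isomerase PPIA (5758 ± 129 CPM), the glycolytic enzymes ENO1 (5692 ± 26.4 CPM) and GAPDH (5296 ± 7.91 CPM), the elongation factor EEF1A1 (5679 ± 114 CPM), the chromatin-associated PTMA (5197 ± 57.1 CPM), the tubulin TUBA1B (4875 ± 54.0 CPM), the ribosomal pseudogene RPL23AP42 (4735 ± 105 CPM) and the chaperone HSP90AB1 (3832 ± 27.2 CPM). RPL23AP42 is a processed copy of a ribosomal protein gene, and reads of the parent gene and the copy may have been split between them, so its level was uncertain. Mitochondrial mRNAs took 6.12% ± 0.220 of the counts (SD, n = 3), and cytosolic ribosomal protein genes took 19.7% ± 0.0661. Of the 87 genes in the ribosomal protein family, 83 were detected, with a median of 2006 CPM, and those listed at 0 included RPL39L and RPL10L.

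MYCN, a transcription factor that drives growth, was among the highest genes outside the ribosomal and mitochondrial ones. MYCN stood at 2708, 2808 and 2770 CPM, rank 46 of 27852, and rank 12 when ribosomal protein and mitochondrial genes were left aside. Its level did not separate from those of the neighbours in rank, RPS3 and RPL34, whose ranges overlapped it. ABCC1 followed at 2449, 2478 and 2550 CPM, rank 53, and its range overlapped that of VIM, an intermediate filament protein of mesenchymal cells, at 2476, 2481 and 2493 CPM. Both MYCN and ABCC1 thus lay among ribosomal protein genes in level.

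The other MYC family genes were at the opposite end of the range. MYCL, a family member often amplified in SCLC, was listed at 1.07, 0.993 and 0.632 CPM, and MYCN exceeded it by a factor of 2530 to 4382 within a library. MYC had a mean of 0.158 CPM and was not detected. Genes that carry the cell cycle were in the middle and high classes: CDK4 reached 238 ± 11.8 CPM, CDK2 169 ± 5.01 CPM, the transcription factor E2F1 136 ± 3.87 CPM and the histone methyltransferase EZH2 96.9 ± 3.83 CPM. The cyclins CCND3, CCND1 and CCND2 stood at 51.9, 47.6 and 26.5 CPM, with overlapping ranges for the first 2 of them. Of 19 oncogene and cell cycle genes listed, 18 were detected, and MYC was the one that was not.

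Of the tumour suppressors, all 17 on the list were detected, although detection of an mRNA says nothing about mutation. RB1, which is usually lost in SCLC, was measured at 21.7, 21.4 and 21.4 CPM, a narrow range for a gene of this level. CDKN2A, which encodes an inhibitor of CDK4, was higher at 185, 169 and 208 CPM, a factor of 7.93 to 9.74 over RB1. KEAP1 (79.0 ± 4.42 CPM), CDKN1B (59.0 ± 0.961 CPM), CDKN1A (54.1 ± 3.97 CPM) and STK11 (50.9 ± 1.42 CPM) were in the middle class, as were RBL2 (37.3 CPM), NF1 (26.0 CPM), EP300 (19.4 CPM), CREBBP (17.4 CPM) and RBL1 (10.8 CPM). CDKN2B (9.50 CPM, through a retained-intron transcript), RASSF1 (7.26 CPM) and KMT2D (7.19 CPM) were low, and FHIT, a fragile-site gene on the short arm of chromosome 3, was lowest at 1.04 ± 0.173 CPM.

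The tumour subtype was described through 50 neuroendocrine markers. Of the 16 transcription factors among them, 7 were detected (43.8%, against 62.6% of protein-coding genes), among them SOX2, HES6, PROX1 and INSM1. NEUROD1, which defines a neuroendocrine subtype, had a mean of 0.0339 CPM, and NKX2-1, the lung lineage factor, had a mean of 0.0748 CPM. FOXA2, NEUROD4, ISL1 and RFX6 were listed at 0. A coding transcript was listed for each of these factors. These 6 factors were thus among the 9 of 16 that were not detected in libraries labelled SCLC.

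The secretory apparatus of neuroendocrine cells followed the same line in part. CHGA, the chromogranin of dense-core granules, was listed at 0 through a coding transcript, and NCAM1 (CD56), a surface marker used in diagnosis, stood at 0.107, 0.112 and 0.0673 CPM. The synaptic vesicle protein SYP was low, at 2.40, 2.85 and 3.00 CPM. The secretogranin SCG2, in contrast, reached 98.6, 93.9 and 94.9 CPM, and its relative CHGB reached 5.85 ± 0.249 CPM. The prohormone-processing carboxypeptidase CPE stood at 11.04 ± 0.414 CPM and the vesicle calcium sensor SYT1 at 7.09 ± 0.282 CPM. Among 7 peptide hormones, only GAL was detected, at 2.59 ± 1.12 CPM, and GRP, CALCA, CALCB and TAC1 were listed at 0.

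Several genes of the list were nevertheless high. SOX2, a stem cell factor often gained in SCLC, stood at 628, 645 and 634 CPM and had rank 222. UCHL1, a neuronal ubiquitin hydrolase, reached 659, 636 and 662 CPM, and the neuronal tubulin TUBB3 reached 358 ± 3.20 CPM. HES6, a factor of neuronal differentiation, stood at 158, 187 and 170 CPM. These 4 genes were the only ones of the 50 at 100 CPM or more. That count lay near the background, since 8.08% of protein-coding genes with a position reached 100 CPM. The neuron-specific enolase ENO2 was lower than UCHL1 by a factor of 13.4 to 14.1 and stood at 47.3 ± 0.421 CPM. DLL3, an inhibitory Notch ligand that is a drug target in SCLC, stood at 27.3, 24.4 and 26.7 CPM, INSM1 at 15.2 ± 1.62 CPM and PROX1 at 20.6 ± 0.921 CPM. In all, 21 of the 50 were detected, which is 42.0% against 62.6% of protein-coding genes, and the median of the list was 0.189 CPM.

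Tuft cell markers were mostly below detection. POU2F3 had a mean of 0.123 CPM, ASCL2 was listed at 0, and GFI1B had a mean of 0.0337 CPM. SOX9, which is not restricted to tuft cells, stood at 14.4 ± 1.07 CPM. Of 17 genes, 3 were detected, namely SOX9, SH2D6 (3.71 ± 0.382 CPM, through a non-coding transcript) and PLCG2 (2.68 ± 0.236 CPM), the last being a phospholipase of receptor signalling.

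In the list for YAP1 and non-neuroendocrine cells, 28 of 32 genes were detected, and the median was 24.8 CPM. YAP1 itself, a co-activator of the Hippo pathway, stood at 28.6, 28.4 and 26.3 CPM, and its paralogue WWTR1 (TAZ) at 46.2, 48.4 and 42.5 CPM, so WWTR1 was higher in every library. The DNA-binding partners TEAD4 and TEAD2 stood at 48.5 ± 0.321 and 48.1 ± 3.57 CPM and could not be ordered, TEAD3 stood at 22.04 CPM and TEAD1 at 6.07 CPM. REST, a repressor of neuronal genes, reached 14.4 ± 0.431 CPM. The transcription factors SMAD3 and FOSL1 stood at 29.7 and 22.7 CPM, and RUNX1 and RUNX2 were low at 3.10 and 1.94 CPM.

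Target and surface genes of that list spanned the whole range. ANXA2 and ANXA1, annexins that bind membrane phospholipids, were at 1135 ± 28.5 and 565 ± 10.4 CPM. Among receptors of the Notch pathway, NOTCH3 (99.7, 106 and 104 CPM) lay above NOTCH2 (89.6, 88.7 and 94.4 CPM), NOTCH1 was low at 1.35 ± 0.623 CPM through a non-coding transcript, and the Notch target HES1 stood at 55.0 ± 2.29 CPM. The matricellular gene CCN1, a common readout of YAP1 activity, stood at 67.4 ± 1.74 CPM, and AJUBA, a LIM protein of the same list, at 29.8 ± 0.376 CPM. Other readouts on the list were low or at trace level, with AMOTL2 at 6.19 ± 0.964, CCN2 at 0.727 ± 0.123 and ANKRD1 at 0.0425 CPM. CD44, through a non-coding transcript, and CAV1 stood at 65.6 ± 9.10 and 59.9 ± 0.823 CPM, MET at 27.0 ± 1.03 CPM and AXL at 1.48 CPM.

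Epithelial genes were split between keratins and junction proteins. KRT8 (96.3, 102 and 93.4 CPM) and KRT18 (83.7, 81.7 and 82.7 CPM), the keratin pair of simple epithelia, were followed by KRT7, through a non-coding transcript, at 52.5 ± 1.25 CPM and KRT17 at 11.5 ± 0.847 CPM. KRT19 was listed at 0 through a coding transcript. Of 13 adhesion and junction genes, 5 were detected. CDH1 (E-cadherin) was listed at 0, but through a retained-intron transcript, and EPCAM had a mean of 0.298 CPM through a transcript subject to nonsense-mediated decay, so neither value bears firmly on the gene. CLDN3 was low at 0.844 CPM and MAL2 was listed at 0, both through coding transcripts. The epithelial regulators were low or at trace level, with ESRP1 at 2.50 ± 0.706, GRHL1 at 1.67 ± 0.947 and ELF3 at 1.57 ± 0.217 CPM as the highest of 9, followed by OVOL2, EHF, TP63, ESRP2, GRHL2 and OVOL1 below 0.5 CPM. ELF3, OVOL2 and GRHL2 were listed through non-coding transcripts. CDH3 (P-cadherin) stood at 20.8 ± 0.147 CPM.

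Several mesenchymal genes were high in level. VIM was joined by LGALS1, a galectin, at 1404 ± 14.8 CPM, and CDH2 (N-cadherin) stood at 161, 179 and 168 CPM, a factor of 7.74 to 8.66 above CDH3. Fibrillar collagen genes were led by COL1A2 at 1699, 1698 and 1699 CPM, with COL1A1 at 527 ± 4.04 CPM, COL3A1 at 227 ± 1.84 CPM and COL5A2 at 118 ± 2.13 CPM. COL1A2 exceeded COL1A1, its partner in type I collagen, by a factor of 3.20 to 3.24 within each library. Collagen-modifying and matrix genes were also high, LOX at 151 ± 4.04 CPM, TGFBI at 123.1 ± 3.22 CPM, and SPARC, through a retained-intron transcript, at 112 ± 2.27 CPM. The membrane protease MMP14 was in the middle class at 86.5 ± 4.75 CPM. COL4A1, COL6A3, MMP2 and POSTN were listed at 0.

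Of the factors that drive epithelial-mesenchymal transition, TWIST1 was highest at 106, 103 and 105 CPM. ZEB1 stood at 24.8, 27.9 and 26.6 CPM, which TWIST1 exceeded by a factor of 3.68 to 4.27. ZEB2 (19.9 ± 1.78 CPM), TCF4 (33.4, 25.4 and 16.6 CPM, a range that spans that of ZEB1) and SNAI1 (9.01 ± 0.256 CPM) were detected, PRRX1 and SNAI2 were at trace level, and TWIST2 was listed at 0. The surface markers of fibroblasts and pericytes were low or at trace level, with FAP at 2.78 ± 0.454 CPM, PDGFRB at 0.152 CPM, PDGFRA at 0.0933 CPM and THY1 at 0. In all, 26 of 41 mesenchymal genes were detected, 63.4% against 62.6% of protein-coding genes, and 11 of the 41 stood at 100 CPM or more, against 8.08% of protein-coding genes with a position.

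**Figure D3:**
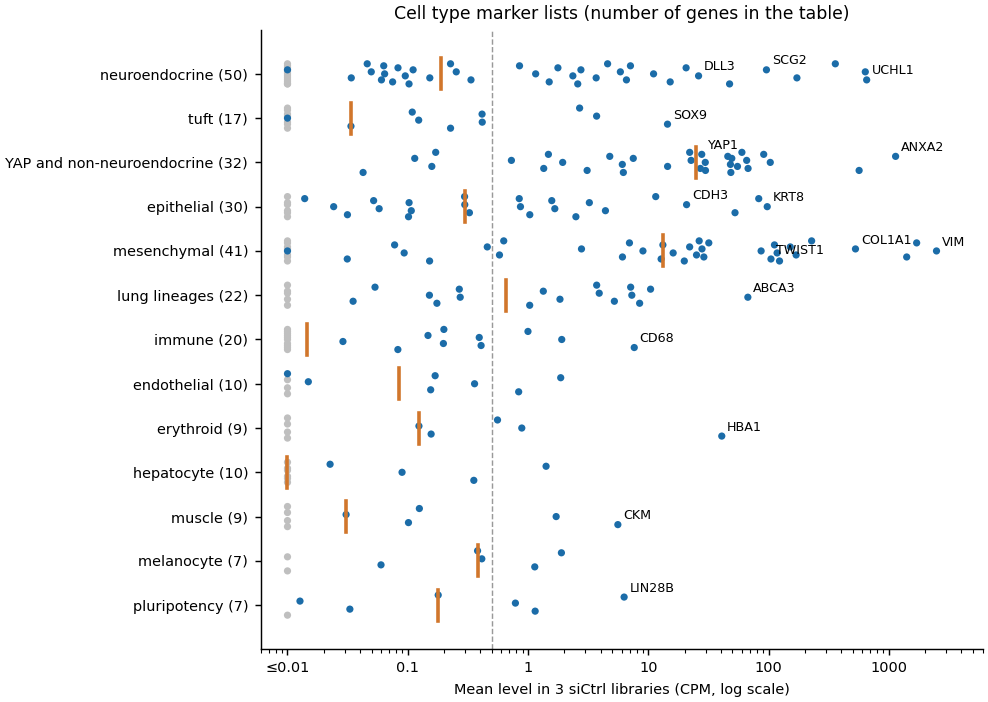
Mean level of each gene of 13 marker lists in the 3 siCtrl libraries (CPM, log scale); blue points are genes above 0, grey points are genes listed at 0, and both are drawn at 0.01 where lower. Orange bars are list medians and the dashed line is 0.5 CPM. The YAP and non-neuroendocrine list (median 24.8 CPM) and the mesenchymal list (13.2 CPM) lie to the right of all others.

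Markers of other cell types were mostly low, at trace level or listed at 0, with list medians from 0 (hepatocyte) to 0.652 CPM (lung lineages). Not all of them were below detection. In the lung lineage list 11 of 22 genes were detected, among them 4 of 5 ciliated and 3 of 4 alveolar type 1 genes, all under 10 CPM. In the pluripotency list 3 of 7 were detected. In the immune list, 3 of 20 genes were detected, the summed level was 8.82 to 14.7 CPM in the 3 libraries, CD68, a macrophage marker, was highest at 7.63 CPM, and CD3D, CD3E, MS4A1, CD74 and, through a retained-intron transcript, ITGAM were listed at 0. The endothelial list had no detected member of 10 (summed level 0.530 to 4.93 CPM), and the hepatocyte list had APOA1 at 1.41 CPM as its highest gene. Surfactant genes SFTPA1, SFTPA2 and NAPSA were listed at 0 and SFTPB and SFTPC were at trace level, while the lipid transporter ABCA3, which belongs to the same alveolar type 2 list, stood at 67.1 ± 2.49 CPM. Club and ciliated cell genes reached about the limit of the middle class at most, with SCGB3A2, through a non-coding transcript, at 10.4 ± 2.71 CPM, FOXJ1 at 8.46 ± 0.360 CPM and TPPP3 at 7.12 ± 0.789 CPM. In the erythroid list, HBA1 alone was in the middle class, at 39.2, 42.9 and 40.1 CPM, with HBB and HBD at 0. HBB was listed with a retained-intron transcript. CKM led the muscle list at 5.58 ± 0.408 CPM, DCT the melanocyte list at 1.89 ± 0.387 CPM, and LIN28B the pluripotency list at 6.29 ± 0.476 CPM.

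Drug efflux was examined with 18 ABC transporters. Several ABC transporters of the C family, though not all, carry glutathione conjugates and anionic drugs out of the cell. ABCB1 (P-glycoprotein) and ABCG2 are the other pumps commonly tied to multidrug resistance. ABCC1 made up most of the summed level of the group, 2492 of 2660 CPM. The next transporters were ABCC6 at 66.5, 69.4 and 73.4 CPM and ABCA3 at 68.9, 68.2 and 64.3 CPM, whose ranges overlapped. ABCC1 exceeded ABCC6 by a factor of 34.7 to 36.8 within a library. ABCC5 (13.9 ± 0.572 CPM), ABCC10 (8.995 ± 0.642 CPM), ABCA2 (5.49 ± 1.83 CPM) and ABCB5 (1.59 ± 0.198 CPM) were also detected.

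The remaining 11 ABC transporters were not detected. ABCG2 was listed at 0 through a coding transcript, as was ABCC12. ABCB1, ABCC4 and ABCC8 were listed at 0 through retained-intron transcripts and ABCB11 through one subject to nonsense-mediated decay, so their zeros describe those transcripts only. ABCC3 had a mean of 0.0748 CPM, again through a transcript of the nonsense-mediated decay class. The authors report that ABCC3 and ABCC6 were raised in H69AR cells compared with H69. The series holds no H69 library, so that comparison was not tested, and the value of ABCC3 describes its listed transcript only. ABCC9 had a mean of 0.190 CPM through a coding transcript. The listings of ABCC2 (0.0406 CPM), ABCC11 (0.1001 CPM) and ABCB4 were non-coding, the last with a mean of 0.237 CPM. MVP, the major vault protein that is often cited as lung resistance protein, was at trace level, at 0.855, 0.561 and 0 CPM, whereas the vault component PARP4 stood at 63.3 ± 0.553 CPM. The copper transporter SLC31A1, which also takes up cisplatin, stood at 31.5 ± 0.652 CPM.

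**Figure D4:**
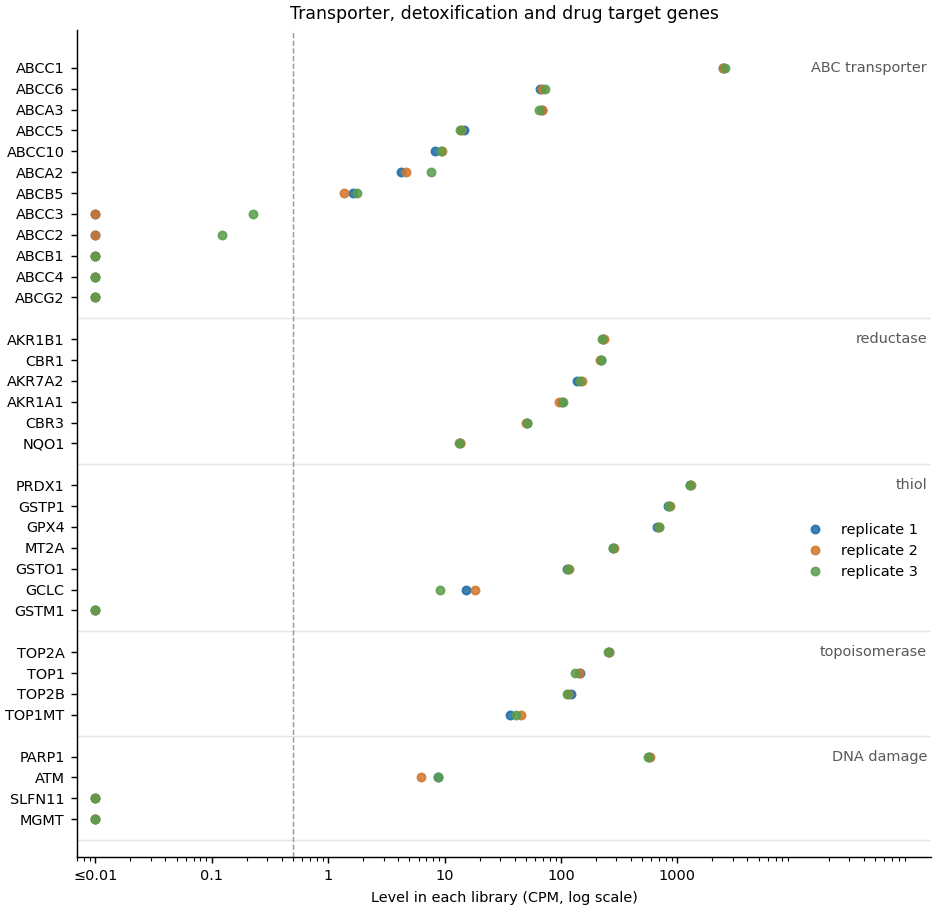
Level of selected transporter, detoxification, topoisomerase and DNA damage genes in each siCtrl library (CPM, log scale; values at or under 0.01 are drawn at 0.01); colours are the 3 replicates and the dashed line is 0.5 CPM. ABCC1 (mean 2492 CPM) is the highest transporter in all 3 libraries, with ABCC6 and ABCA3 next among the transporters.

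Enzymes that reduce the carbonyl group of anthracyclines were partly high. The carbonyl reductase CBR1 stood at 221, 217 and 221 CPM and the aldose reductase AKR1B1 at 229, 234 and 224 CPM, so AKR1B1 was slightly higher in each library. CBR1 exceeded its paralogue CBR3 by a factor of 4.27 to 4.36. AKR7A2 (145 ± 6.59 CPM) and AKR1A1 (101 ± 4.38 CPM) followed, and the one-electron reductase POR stood at 55.7 ± 2.26 CPM. AKR1C1, AKR1C3 and AKR1B10, which are induced by NRF2 in many resistant lines, were listed at 0, and the NRF2 target NQO1 was in the middle class at 13.5 ± 0.177 CPM. Of 19 genes, 11 were detected, 57.9% against 62.6% of protein-coding genes.

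In thiol metabolism, the peroxiredoxin PRDX1 was highest, and the ranges of SOD1 and the placental-type glutathione transferase GSTP1 overlapped. PRDX1 stood at 1278, 1299 and 1292 CPM, PRDX2 at 914 ± 23.9 CPM, the superoxide dismutase SOD1 at 869 ± 6.11 CPM and the lipid peroxidase GPX4 at 688 ± 18.9 CPM. GSTP1, which conjugates glutathione to drugs, stood at 827, 870 and 851 CPM, a factor of 7.34 to 7.46 above GSTO1. The transferases GSTM1, GSTA1, GSTA2 and MGST1 were listed at 0. All 16 peroxidase and thioredoxin genes were detected. The enzymes of glutathione synthesis were lower, GCLM at 24.4 ± 1.68 CPM and GCLC, the catalytic subunit of the limiting step, through a non-coding transcript, at 15.2, 18.1 and 9.15 CPM, and the cystine carrier SLC7A11 stood at 5.78 ± 0.106 CPM. Metallothioneins, small zinc-binding proteins, were uneven, with MT2A at 281 ± 3.84 CPM, MT1X at 135 ± 14.1 CPM and MT1G at 26.3 ± 4.88 CPM, and 6 of 10 listed at 0. Metallothionein genes are near-identical copies, so their division was uncertain.

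Topoisomerase genes, the targets of anthracyclines, etoposide and camptothecins, were all detected. TOP2A, the proliferating-cell form of topoisomerase II, stood at 259, 258 and 255 CPM, above TOP1 (147, 143 and 133 CPM) and TOP2B (121, 115 and 112 CPM) in every library. TOP2A exceeded TOP2B by a factor of 2.14 to 2.27. TOP1MT and TOP3A were in the middle class at 41.1 ± 4.69 and 30.5 ± 1.41 CPM, TOP3B was low at 9.13 CPM, and the repair enzymes of topoisomerase adducts, TDP1 and, through a non-coding transcript, TDP2, stood at 31.2 and 7.04 CPM. SLFN11, a helicase-like factor whose loss accompanies resistance to DNA-damaging drugs, was listed at 0 in all 3 libraries through a coding transcript, and so was MGMT, which repairs alkylated guanine. PARP1 was the highest gene of the damage response at 571 ± 11.1 CPM, PARP2 reached 143 ± 6.04 CPM, and the kinases PRKDC, ATR and, through a non-coding transcript, ATM stood at 76.6, 11.1 and 7.95 CPM. BRCA1 and BRCA2 stood at 20.4 ± 1.67 and 1.43 ± 0.0913 CPM.

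Death receptors were near 0 while the mitochondrial pathway was present. FAS had a mean of 0.0124 CPM and TNFRSF10B, a TRAIL receptor, of 0.0280 CPM, and CASP8, the caspase of that pathway, stood at 3.20, 1.21 and 1.20 CPM. BAX and BAD stood at 113 ± 10.1 and 145 ± 1.90 CPM. MCL1 (117 ± 0.803 CPM) was the leading BCL2-family inhibitor of cell death, a factor of 24.9 to 27.5 above BCL2, and the survivin gene BIRC5 reached 151 ± 4.69 CPM. BCL2L1 stood at 20.0 ± 3.34 CPM. Of 30 apoptosis genes, 24 were detected.

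Among 33 growth factor receptors, 18 were detected (54.5%, against 62.6% of protein-coding genes) and none reached 100 CPM. The highest means were those of IGF2R (89.1 ± 1.25 CPM), the ephrin receptor EPHB4 (65.9 ± 1.15 CPM), the neurotrophin receptor NTRK2 (57.5, 62.7 and 64.6 CPM) and FGFR2 (49.5 ± 1.41 CPM), the last overlapping EPHA2 (49.4 ± 1.12 CPM). EGFR had a mean of 0.171 CPM through a coding transcript, KIT of 0.00579 CPM, and ERBB2 and IGF1R were listed at 0, the latter through a non-coding transcript. Among ligands, VEGFA stood at 104 ± 2.22 CPM and TGFB1 at 76.3 ± 3.41 CPM, with TGFB3, through a non-coding transcript, and TGFB2 at 45.4 and 36.9 CPM.

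TREX1, the cytosolic exonuclease that degrades DNA and was the subject of the study, stood at 22.5, 31.2 and 24.7 CPM under control siRNA, rank 5052, and its range was wide for that level. The estimated counts of TREX1 were 506, 513 and 509 in libraries whose totals differed. TREX1 (chr3:48465811-48467645 in GRCh38) lies within the annotated span of ATRIP on the same strand, and ATRIP was listed at 9.95 ± 1.69 CPM, so reads may have been divided between them. The DNA sensor CGAS had a mean of 0.0560 CPM through a coding transcript and was not detected. The authors report cGAS protein in this cell line by immunoblotting. The low value of CGAS is therefore not read as absence of the sensor, and the reason for the difference from the protein was not tested. The adaptor of this sensor, STING1, stood at 14.7 ± 1.22 CPM. The kinase TBK1 (54.2 ± 1.07 CPM) and the factor IRF3 (37.1 ± 2.57 CPM) further along this pathway were in the middle class. RNASEH2A, a subunit of the RNase that removes ribonucleotides from DNA, was the highest of the group at 239 ± 4.95 CPM. Type I and III interferon genes on the list (IFNB1, IFNA1 and IFNL1), CCL5 and MX1 were listed at 0, and IFIT1 and IFIT2 were low at 1.45 and 1.92 CPM.

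Antigen presentation genes gave an uneven picture that the listed transcripts limit. B2M, the invariant chain of class I, listed through a transcript of the nonsense-mediated decay class, stood at 458, 433 and 468 CPM, while HLA-B, through a coding transcript, and HLA-C were listed at 0. The transcript listed for HLA-C is not on the primary assembly annotated in GENCODE 29, so the zero of this polymorphic gene describes that transcript only. HLA-E stood at 3.86 ± 0.288 CPM and the peptide transporters TAP1 and TAP2 at 8.93 ± 1.20 and 12.9 ± 2.23 CPM, and the transcripts listed for HLA-E and TAP1 are also not in GENCODE 29. The checkpoint ligand CD274 (PD-L1) had a mean of 0.0291 CPM, and CD276 (B7-H3), a related surface protein, stood at 50.8 ± 3.94 CPM.

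Chromosomal position separated ABCC1 from the other landmark genes. For each gene the 10 protein-coding genes on either side were taken, giving a window of 21 genes, and its median was placed among all 18298 such windows, which overlap one another and are given as a description. The median window stood at 6.55 CPM, and 99% of windows lay below 39.0 CPM. The window around ABCC1 (chr16:15949577-16143074 in GRCh38) had a median of 69.8 CPM and was in place 19. The windows around MYCN, TREX1 and RB1 stood at 6.44, 7.69 and 4.77 CPM, near the middle of all windows, and that around YAP1 at 0.0285 CPM, with 10 of 21 genes listed at 0, several of them matrix metalloproteinases.

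The stretch of high genes on chromosome 16 began at CEP20, the gene next to ABCC1. CEP20, which encodes a centrosomal protein, stood at 2681, 2615 and 2664 CPM, above ABCC1 in every library. The ends of this stretch were drawn from these same values, where levels dropped. From CEP20 to ARL6IP1 (chr16:15865720-18801678), all 11 protein-coding genes stood at 69.8 CPM or more and 9 at 100 CPM or more. Of all protein-coding genes with a position, 8.08% stood at 100 CPM or more, but a stretch drawn in this way holds high genes by choice. On the other side of CEP20, the 10 genes from NPIPA1 to MYH11 reached at most 67.3 CPM (NPIPA1, through a non-coding transcript), with NDE1 at 32.1 ± 1.61 CPM and the smooth muscle myosin MYH11 at 0.398 CPM, the latter through a retained-intron transcript. The step thus fell between MYH11, whose value describes that transcript only, and CEP20. Beyond ARL6IP1 (525 ± 11.1 CPM), SMG1 stood at 26.5 ± 0.316 CPM.

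Within the stretch, the xylosyltransferase XYLT1 stood at 348, 351 and 358 CPM and the membrane complex gene NOMO3 at 1018, 1043 and 1050 CPM. NOMO2 stood at 301 ± 0.267 CPM, and NOMO1, a copy that lies before CEP20, at 80.5 ± 1.19 CPM, a factor of 12.7 to 13.1 below NOMO3. The NOMO and NPIPA genes are near-identical copies between which reads can be divided, and RPS15A belongs to the ribosomal protein genes, which were high across the genome. Without these 6 genes, the 5 that remained, CEP20, ABCC1, ABCC6, XYLT1 and ARL6IP1, still ranged from 69.8 to 2654 CPM.

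Of all windows, the highest was on the long arm of chromosome 18, an observation made after the values had been seen. Its median was 150 CPM, and 11 of its 21 genes reached 100 CPM. With 5 genes on each side, in place of 10, the median of that window was 305 CPM. The zinc transporter SLC39A6 (LIV-1, chr18:36108532-36129385) was its highest gene at 2273, 2225 and 2248 CPM, rank 65. ELP2, a subunit of the Elongator complex whose start lies head to head with that of SLC39A6, stood at 738 ± 21.3 CPM, and SLC39A6 exceeded it by a factor of 2.96 to 3.11. From MAPRE2 to ELP2 (chr18:34976928-36180556), 9 of 11 genes stood at 100 CPM or more, among them the glycosyltransferase GALNT1 (693 ± 13.9 CPM, through a non-coding transcript), the zinc finger gene ZNF24 (331 ± 6.45 CPM) and the chromatin remodelling subunit INO80C (311 ± 7.35 CPM). ZSCAN30 (60.03 CPM) and ZNF396 (3.64 CPM) were the exceptions. The ends of this run were likewise drawn from these same values, so its count of high genes was set in part by that choice. High genes ended at TPGS2 (727 ± 26.6 CPM), with MOCOS and FHOD3 low at 1.05 and 6.97 CPM between ELP2 and TPGS2.

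MYCN (chr2:15940564-15947007) differed from both in that its neighbours were not high as a group. DDX1, an RNA helicase gene next to MYCN that is often gained together with it in tumours, stood at 157, 149 and 150 CPM, and MYCN exceeded it by a factor of 17.2 to 18.9. NBAS on the far side of DDX1 stood at 14.2, 13.8 and 13.5 CPM, and CYRIA on the other side of MYCN at 0.0190 CPM. Only DDX1 and MYCN reached 100 CPM in this window of 21.

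**Figure D5:**
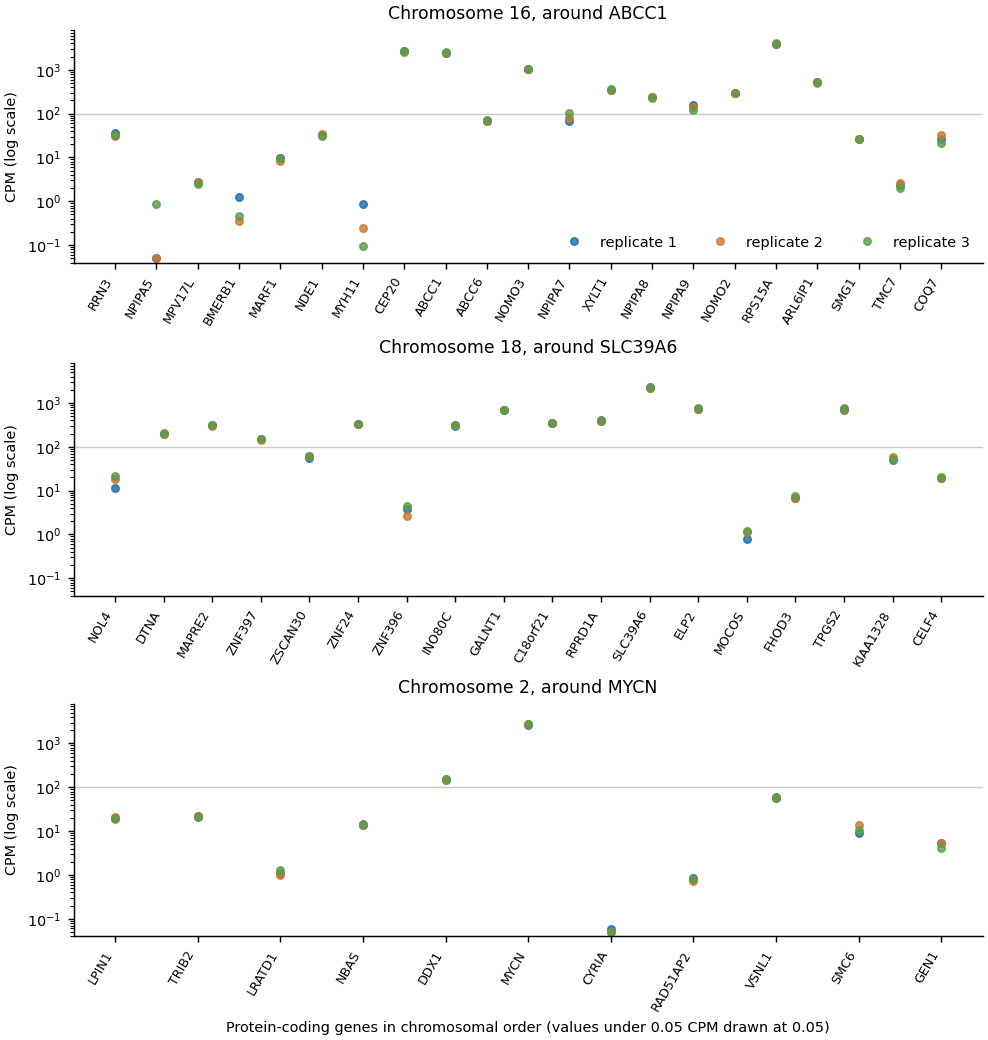
Level in each siCtrl library (CPM, log scale; values under 0.05 are drawn at 0.05) of protein-coding genes in chromosomal order around ABCC1, SLC39A6 and MYCN; colours are the 3 replicates and the grey line is 100 CPM. The step from MYH11 (0.398 CPM) to CEP20 (2654 CPM) and the 9 of 11 genes above 100 CPM from MAPRE2 to ELP2 are seen in all 3 replicates, while MYCN stands alone with DDX1.

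Several gene families had most of their members listed at 0. Of 382 olfactory receptors, 364 were listed at 0 and OR2C3 alone was detected, at 20.5, 19.4 and 19.5 CPM. Of 93 keratin-associated proteins 81 were listed at 0, of 43 beta defensins 41, of 55 keratins 40 and of 21 interferons 17. No bitter taste receptor of 25 was detected. Families that every cell uses were at the other end: 77 of 77 mitochondrial ribosomal protein genes and 35 of 38 proteasome subunits were detected, with medians of 85.1 and 161 CPM.

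The HOX clusters, whose genes specify position along the body axis, differed from one another. HOXC genes were detected in 9 of 9 cases, with HOXC10 (48.9, 54.2 and 52.8 CPM) and HOXC9 (44.4, 49.0 and 51.6 CPM, through a non-coding transcript) highest and with overlapping ranges. HOXA genes were detected in 9 of 11 cases, led by HOXA10 at 21.2 ± 1.41 CPM, and HOXB genes in 7 of 10, led by HOXB7 at 37.2 ± 2.43 CPM. None of 9 HOXD genes was detected, and the highest mean among them was 0.0694 CPM for HOXD12. The difference between clusters was described and not tested.

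Among claudins, which seal tight junctions, CLDN11 stood far above the rest at 408, 411 and 428 CPM, followed by CLDN12 at 22.3 ± 1.62 CPM, and 11 of 24 were listed at 0. Integrins were led by ITGB1 (218 ± 6.21 CPM), and ITGAE (through a non-coding transcript), ITGAV, ITGA7 and ITGA3 stood at 64.0, 47.0, 37.1 and 35.2 CPM. Collagens outside the mesenchymal list included COL21A1 at 244 ± 3.75 CPM and COL2A1, the cartilage collagen, at 148, 152 and 152 CPM. The cancer-testis genes MAGEA6 (200, 198 and 202 CPM) and MAGEA3 (149, 99.4 and 105 CPM) were high while 41 of 56 genes of these families were listed at 0, but MAGEA copies are nearly identical in sequence and their division was uncertain. CYP51A1, an enzyme of cholesterol synthesis, was the only cytochrome P450 gene above 100 CPM, at 133 ± 5.47 CPM. Of 34 chemokines 4 were detected, with CCL2 highest at 10.4 ± 1.06 CPM, and the sodium channel SCN8A stood at 14.0 ± 0.284 CPM. Of 550 genes with a ZNF symbol, 417 were detected, with a median of 4.34 CPM.

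Some genes were listed unevenly between libraries. A total of 192 genes were listed at 0 in 1 or 2 libraries with at least 50 counts in another, 93 of them protein-coding. CENPN, a centromere protein, was listed with 604, 320 and 0 counts through a non-coding transcript, the pseudogene COX5BP6 with 59.1, 570 and 0 counts, and ACAP1, also through a non-coding transcript, with 0, 407 and 0 counts. Such genes could not be assigned a level.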

How the data were processed

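The authors checked reads with FastQC, quantified transcripts with kallisto and summarised them with tximport as scaledTPM. The submitters' processing notes name the build hg19, and the annotation version is not given in the sources used here. The deposited values are estimated counts, 1 transcript per symbol, after a filter that the table names as the highest count. Estimates were divided by each library's total over lines with a symbol (a line without one held 0.0925 to 0.105% of counts) to give CPM. No count model or test was run, because 1 group was described. Gene types and positions came from GENCODE 29 (GRCh38), in which 27644 of 27852 listed transcripts (99.3%) were found. The text names the 30 highest genes, up to 8 highest of each of 22 lists with all factors, regulators, ABC transporters, topoisomerases, tumour suppressors and oncogenes, up to 5 of each of 24 families, 3 unstable listings and the neighbourhoods. Other genes named were chosen after their values were seen. The members and lists were chosen with earlier results of these data known. Genes are listed by mean level, and neighbours in that order differ only where the ranges of their 3 libraries do not overlap. Scripts (Python 3.11.15, pandas 2.3.3, numpy 2.4.6, matplotlib 3.10.9) were tested on simulated data. Some genes are not reported here. Alternatives covered thresholds, scaling and leaving out each library.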

Additional observations from a re-analysis of the deposited data

How the results depend on the processing

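The counts of genes listed at 0, detected and very high stayed within 1.5 times their values under every alternative run. Leaving out 1 library gave 10820 to 10909 genes listed at 0, 12609 to 12633 detected and 143 to 146 very high, and 34.6 to 34.8% of counts in the 100 highest genes. That share was 34.7% and moved to 32.5% without mitochondrial-genome genes. With 5 genes on each side, the ABCC1 window median moved from 69.8 to 83.4 CPM and, as an alternative chosen after seeing the data, that of chromosome 18 from 150 to 305 CPM. The ABCC1 window then stood in place 79 of 18528, and the MYCN window median moved from 6.44 to 13.8 CPM. Also added after seeing the data, the chromosome 16 stretch median moved from 353 to 525 CPM without RPS15A and the NOMO and NPIPA copies. These medians change with which genes are included. Without mitochondrial counts in the totals, the levels of named genes at 10 CPM or more (314) rose by a factor of 1.06 to 1.07. Median-of-ratios scaling moved none of 719 named genes by more than the SD. Requiring 1 CPM lowered the detected members of a list by at most 3. No paired analysis was possible because the results come from no test. Depth limits levels under about 0.2 CPM, and the listed transcript limits every low value.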

Other observations

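The following families were looked up after the values had been seen. Besides SOX2, the SOX factors SOX4 and SOX21 stood at 201 ± 4.52 and 59.0 ± 1.05 CPM. Of 19 SOX genes 12 were detected, a share near the background of 62.6% of protein-coding genes. The proliferation factor FOXM1 stood at 121 ± 3.87 CPM and the pioneer factor FOXA1 at 42.9 ± 0.580 CPM. LHX9, a LIM homeobox factor, varied from 30.3 to 53.3 CPM between libraries. Of 9 PAX genes 6 were listed at 0, where the background for such counts is 18.3% of protein-coding genes. The inhibitors of basic helix-loop-helix factors ID3 and ID1 were high at 902 ± 33.3 and 292 ± 13.1 CPM, and ID4 was listed at 0.

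Secreted and surface genes outside the lists included IGFBP2, an insulin-like growth factor binding protein, at 1407, 1456 and 1481 CPM, and its relatives IGFBP5 and IGFBP7 at 347 ± 3.58 and 155 ± 4.71 CPM. The gap junction gene GJA1 stood at 990, 956 and 980 CPM while 11 of 21 connexin genes were listed at 0. The retinoic acid carrier CRABP2 stood at 400 ± 13.1 CPM. The calcium-binding genes S100A6, S100A11 and S100A10 stood at 812 ± 10.8, 640 ± 11.9 and 381 ± 17.7 CPM. Among 14 zinc transporters of the SLC39 family, SLC39A6 was followed by SLC39A1 at 163 ± 4.63 CPM.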
